A study of Mus musculus with 6 samples.

Results

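Splicing regulators are RNA-binding proteins and kinases that decide which exons of a transcript are joined, and their genes were followed here in 4T1, a mouse breast cancer cell line, given BRQ or DMSO. The members are the 96 of 18057 rows of the deposited table whose symbol names an SR protein (Srsf with a digit), an hnRNP (Hnrnp), Tra2a or Tra2b, an RBM protein (Rbm with a digit), Clk1 to Clk4, a CELF protein (Celf with a digit), Mbnl1 to Mbnl3, Ptbp1 to Ptbp3, an RBFOX protein, Son, or an SRRM protein (Srrm with a digit). The rule uses symbols and no measured value, though it was set with earlier results of these data known. The 6 RNA sequencing libraries are 3 of 4T1 cells given DMSO, the solvent control, and 3 of 4T1 cells given BRQ. DHODH, whose inhibition the title of the series mentions, is an enzyme of pyrimidine nucleotide synthesis. What DHO stands for in the 6 sample titles is not stated. Dose, duration and clone are not given in the labels, and nothing in them says that the replicates came from separate cultures, so p-values measure only the spread between these libraries, which may be technical.

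SR proteins bind exons through RNA recognition motifs and recruit the splicing machinery through a domain rich in arginine and serine, which CLK and SRPK kinases phosphorylate. Many hnRNPs and the PTB proteins oppose exon inclusion, while MBNL, CELF and RBFOX proteins set patterns of splicing that differ between tissues. Genes of these families commonly control their own amount by including an exon or an intron that sends the transcript to nonsense-mediated decay. FPKM, the unit of the table, scales the reads of a gene, over all its transcripts, by its length and by the size of the library, so productive and unproductive transcripts cannot be told apart in these values. Lower FPKM is a smaller share of the library and not a measure of RNA per cell.

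Most splicing regulator genes were lower under BRQ, while the RBM proteins rose and fell in shares near those of all genes. Of the 79 members with a mean of at least 1 FPKM, 53 fell (67.1%) and 21 rose (26.6%) at a limma adjusted p under 0.05, whereas over all 10552 genes tested 33.7% fell and 48.7% rose, 82.4% in either direction. Under median-ratio scaling 58 members were lower and 14 higher, against 40.8% and 42.0% of all genes. Under TMM scaling 59 were lower and 14 higher, against 42.4% and 40.6%, and after quantile normalization 60 and 14, against 42.0% and 40.3%. The 3 BRQ values lay wholly below the 3 DMSO values in 51 members (64.6%) and wholly above them in 22 (27.8%), against 34.8% and 49.0% of all tested genes, 83.7% in either direction. The median log2 fold change of the tested members was -0.23, or 0.35 below the median of all genes, which was itself 0.12 above 0 and near 0 (-0.01 to 0.01) after the other scalings. A fall of at least 2-fold in mean FPKM was called for 8 members (10.1%), against 4.87% of all genes. Such a rise was called for 3 members (3.8%), against 10.1% of all genes. Of these 3, which are also among the 21 rises, Rbm4b passed the filter only through its BRQ values (DMSO mean 0.948 FPKM). No SR protein, PTB, MBNL, CELF, RBFOX, TRA2 or SRRM gene was called higher among those with a mean of at least 1 FPKM, and the plot of fold changes by family shows this.

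**Figure D1:**
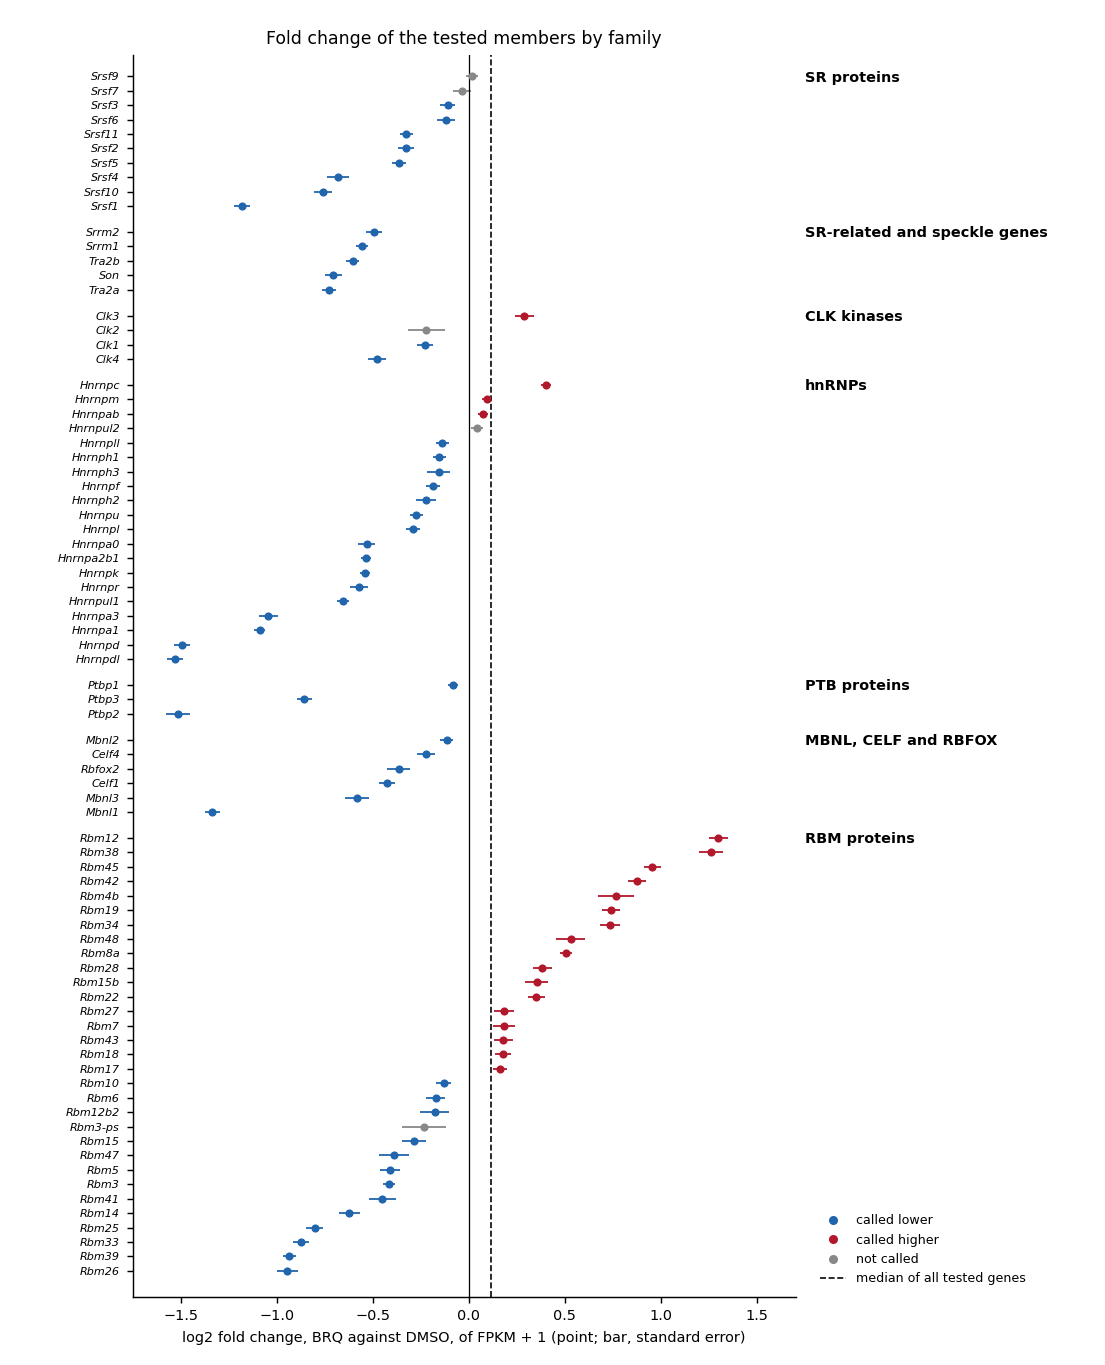
Log2 fold change of each of the 79 tested members (points, with standard errors as bars; x axis, log2 of FPKM + 1, BRQ against DMSO), grouped by family and coloured by the limma call. Points of the SR, speckle, PTB and MBNL, CELF and RBFOX groups lie left of the dashed line at the median of all tested genes (0.12), while RBM genes lie on both sides, from -0.95 to 1.30.

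The libraries held at least 29817873 to 32974158 reads, as recovered from the steps between FPKM values, and the tested members had a mean of 158 reads (Rbm3-ps) to 29270 reads (Srrm2). Markers of epithelial cells fitted the labelled line, since 9 of 10 were measured above 1 FPKM and only Cldn7 lay below it. Their summed level was 2026 to 2078 FPKM under DMSO and 1544 to 1587 under BRQ. The keratins fell, while Epcam, Cldn3 and Cldn4 were higher under BRQ. The libraries BRQ replicate 2 and BRQ replicate 3 stood apart in markers of other cells. The summed level of 11 hepatocyte markers was 15.8 to 19.8 FPKM under DMSO, 14.9 in BRQ replicate 1, and 0.716 and 0.447 in BRQ replicates 2 and 3, where Alb stood at 0.0875 and 0. The summed level of 13 macrophage markers, 8 of them under 1 FPKM throughout, was 33.2 to 37.1 FPKM under DMSO. It was 68.8 in BRQ replicate 1, and 122 and 115 in BRQ replicates 2 and 3. Cd68 and Cd14 were higher in every BRQ library. Lyz2 (3.56 FPKM in BRQ replicate 1, 35.4 and 36.35 in BRQ replicates 2 and 3), Tyrobp and Fcer1g were far higher only in BRQ replicates 2 and 3. The leukocyte gene Ptprc stayed between 0.215 and 0.385 FPKM in every library. Summed fibroblast markers, 6 of 7 of them under 1 FPKM throughout, went from 4.81 to 5.27 FPKM under DMSO to 7.99 to 8.75 under BRQ. The marker above 1 FPKM was Pdgfra, at 4.31 to 4.49 FPKM under DMSO and 7.40 to 8.26 under BRQ. When BRQ replicate 1 alone stood for BRQ, with its spread taken to be that of DMSO, 47 of the 79 tested members were called lower and 17 higher, with a median log2 fold change of -0.24, against 30.1% lower and 43.4% higher of all genes tested there. BRQ replicate 1 itself had higher Cd68 (50.2 FPKM, against 18.8 to 23.5 under DMSO), higher Cd14 and Pdgfra, and a lower epithelial sum. Using it alone therefore does not set those shifts aside. In bulk libraries fewer cells of a type and less RNA per cell cannot be told apart, and the part of these marker shifts in the members' values was not tested.

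Promoter windows of 6 members with large changes, chosen like the motifs after the values were seen, are shown first, because they include a pair of neighbouring paralogues that fell together and a gene whose window also belongs to a gene that moved the other way. They run from 250 bases before to 50 bases after the start in RefSeq (GRCm38.p6, a build other than that of the deposited values), 5′ to 3′ on the gene's strand. Capitals mark matches on either strand to any of the motifs searched: the GC box (GGGCGG), the CCAAT box (CCAAT), the TATA box (TATAAA), the E-box (CACGTG), the ETS core (CCGGAAG) and the NRF1 core.
Srsf1, chr11:88047123-88047422, plus strand: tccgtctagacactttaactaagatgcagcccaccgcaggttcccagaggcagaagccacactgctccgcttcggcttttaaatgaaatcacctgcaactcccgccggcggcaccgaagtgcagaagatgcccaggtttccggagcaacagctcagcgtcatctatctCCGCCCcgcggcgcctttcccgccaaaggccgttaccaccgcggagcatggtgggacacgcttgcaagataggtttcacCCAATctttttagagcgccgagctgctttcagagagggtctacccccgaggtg
Hnrnpd, chr5:99978889-99979188, minus strand: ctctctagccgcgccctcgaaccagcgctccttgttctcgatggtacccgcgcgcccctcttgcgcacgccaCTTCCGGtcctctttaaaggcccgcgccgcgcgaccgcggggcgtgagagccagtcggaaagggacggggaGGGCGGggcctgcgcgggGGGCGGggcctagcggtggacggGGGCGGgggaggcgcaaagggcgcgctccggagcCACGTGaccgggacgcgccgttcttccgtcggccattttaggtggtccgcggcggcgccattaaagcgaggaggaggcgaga
Hnrnpdl, chr5:100039173-100039472, minus strand: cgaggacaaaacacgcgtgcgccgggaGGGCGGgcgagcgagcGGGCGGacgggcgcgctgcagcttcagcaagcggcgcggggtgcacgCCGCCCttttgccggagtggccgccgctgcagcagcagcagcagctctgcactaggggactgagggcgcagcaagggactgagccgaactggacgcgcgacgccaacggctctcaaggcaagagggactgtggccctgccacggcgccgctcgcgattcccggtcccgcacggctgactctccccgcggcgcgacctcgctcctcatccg
Ptbp2, chr3:119783339-119783638, minus strand: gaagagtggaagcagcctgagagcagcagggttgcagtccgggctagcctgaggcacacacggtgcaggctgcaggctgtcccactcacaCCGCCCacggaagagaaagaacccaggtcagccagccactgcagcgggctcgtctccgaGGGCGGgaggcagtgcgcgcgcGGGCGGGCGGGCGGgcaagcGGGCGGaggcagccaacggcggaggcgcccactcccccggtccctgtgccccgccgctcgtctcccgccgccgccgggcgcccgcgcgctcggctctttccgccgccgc
Rbm12, chr2:156111916-156112215, minus strand: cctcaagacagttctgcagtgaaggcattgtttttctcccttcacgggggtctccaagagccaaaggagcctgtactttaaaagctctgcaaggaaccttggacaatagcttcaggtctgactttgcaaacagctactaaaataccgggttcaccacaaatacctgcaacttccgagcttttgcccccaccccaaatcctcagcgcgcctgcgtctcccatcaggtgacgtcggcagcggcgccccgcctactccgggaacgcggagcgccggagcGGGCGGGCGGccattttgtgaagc
Rbm38, chr2:173021652-173021951, plus strand: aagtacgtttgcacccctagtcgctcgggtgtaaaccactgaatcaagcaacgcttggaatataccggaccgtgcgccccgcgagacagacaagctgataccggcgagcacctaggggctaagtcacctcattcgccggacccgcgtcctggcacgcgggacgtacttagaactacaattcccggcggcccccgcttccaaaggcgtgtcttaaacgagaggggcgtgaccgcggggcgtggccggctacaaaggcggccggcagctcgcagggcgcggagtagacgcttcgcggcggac

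The windows of Hnrnpd and Hnrnpdl lie 60284 bases apart on the minus strand of chromosome 5, and each holds 3 GC boxes, with an E-box and an ETS core in that of Hnrnpd. The window of Srsf1 holds 1 GC box and 1 CCAAT box. That of Ptbp2 holds 6 GC boxes, some of which overlap each other, that of Rbm12 holds 2 overlapping ones, and no motif searched was matched in that of Rbm38. The Rbm12 window is also the RefSeq window of Cpne1. Of the 79 tested members 67 had a window. A CCAAT box was matched in 27 of 46 members that fell (58.7%) and 6 of 18 that rose (33.3%), against 39.7% of 8535 tested genes and 37.9% of all 27025 windows. For the GC box these shares were 67.4%, 55.6%, 67.8% and 35.9%, for the ETS core 10.9%, 27.8%, 20.3% and 9.12%, for the E-box 10.9%, 16.7%, 10.7% and 7.24%, for the TATA box 10.9%, 16.7%, 6.42% and 14.2%, and for the NRF1 core 2.17%, 0%, 2.3% and 0.977%. These are matches of letters and were not tested as binding sites.

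SR proteins fell by unequal amounts. Of 10 tested SR genes 8 fell and none rose, against 33.7% and 48.7% of all tested genes. Their median log2 fold change was -0.33, and -0.30 with BRQ replicate 1 alone. Srsf1, which encodes the splicing activator SF2/ASF, measured 58.0, 54.5 and 56.2 FPKM in the DMSO libraries and 24.1, 25.3 and 23.3 in the BRQ libraries. Its groups were far apart, and its level under DMSO was 2.32 times that under BRQ (log2 fold change -1.18, SE 0.0402, limma adjusted p = 3.8e-09). Srsf10, whose protein represses splicing when dephosphorylated after heat shock, measured 23.3, 21.6 and 22.5 FPKM under DMSO and 12.7, 13.5 and 12.4 under BRQ. No BRQ value reached the lowest DMSO value (-0.76, SE 0.046, adjusted p = 1.47e-07).

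Srsf4, which encodes SRp75, measured 26.5, 24.0 and 28.6 FPKM under DMSO and 16, 16.3 and 15.7 under BRQ (-0.68, SE 0.0575, limma adjusted p = 1.63e-06). In the annotation GENCODE M21, 43.0% of the exonic bases of Srsf4 also belong to Gm12992 on the opposite strand. Srsf5, which encodes SRp40 and had the highest mean of the family (88.8 FPKM), fell from 102, 102 and 95.8 to 79.4, 78.8 and 74.4 FPKM (-0.36). Srsf2, which encodes SC35 (-0.33), and Srsf11 (-0.33) fell by similar amounts. The summed level of the 11 SR genes was 558 ± 13.5 FPKM under DMSO and 450 ± 6.0 under BRQ (SD, n = 3), 80.6% of the control level.

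The remaining SR genes changed little. Srsf3, which encodes the smallest SR protein, went from 59.3 ± 2.28 to 54.8 ± 1.74 FPKM (SD, n = 3; -0.11, limma adjusted p = 0.0197), and Srsf6 from 38.5 ± 2.18 to 35.3 ± 1.51 (-0.12, adjusted p = 0.0387) with overlapping groups. The call of Srsf3 was lost without DMSO replicate 3 (adjusted p = 0.075) and without BRQ replicate 2 (0.0751) and with BRQ replicate 1 alone (0.308), and that of Srsf6 without DMSO replicates 1 or 3 or BRQ replicates 1 or 2 (0.0921 to 0.141), with BRQ replicate 1 alone (0.0966) and without a filter (0.092). Srsf7 measured 52.6 ± 3.47 and 51.3 ± 1.03 FPKM (adjusted p = 0.507) and Srsf9 77.5 ± 0.928 and 78.4 ± 2.57 (adjusted p = 0.657). Both were called lower after each of the other scalings, where Srsf9 changed sign (-0.10 to -0.21). The ratio of Srsf1 to Srsf9 within a library, which a single scaling factor per library does not alter, was 0.744, 0.697 and 0.734 under DMSO and 0.315, 0.312 and 0.301 under BRQ. This pair, like the other ratios below, was chosen after the values were seen.

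**Figure D2:**
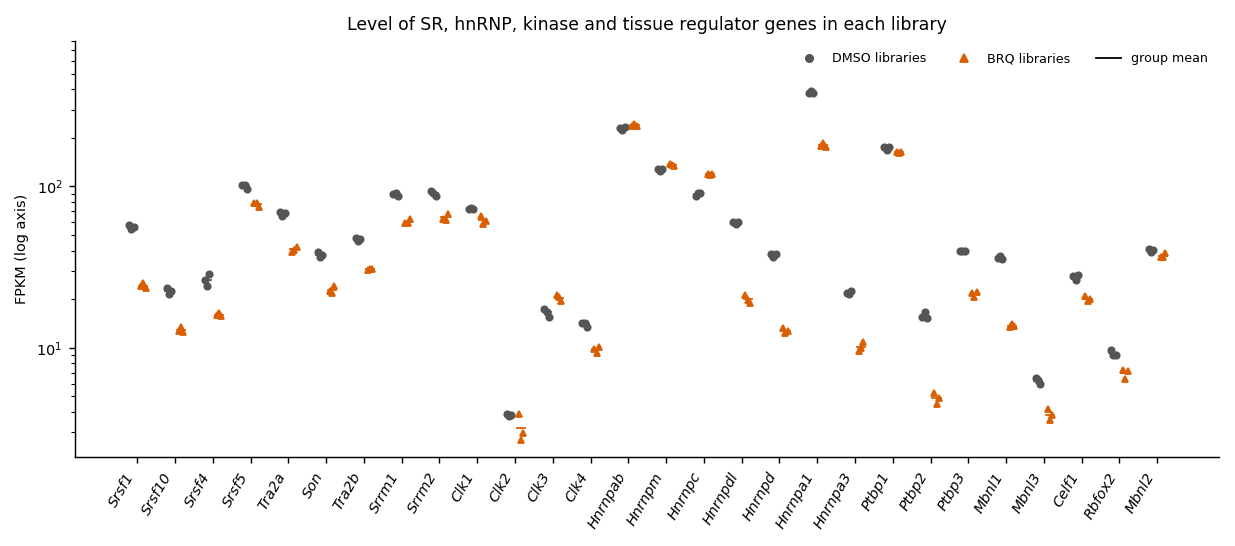
FPKM (log axis) of the named SR, SR-related, CLK, hnRNP, PTB, MBNL, CELF and RBFOX genes in each DMSO library (circles) and BRQ library (triangles), with group means as lines. BRQ values of Srsf1, Hnrnpd, Hnrnpdl, Hnrnpa1, Ptbp2 and Mbnl1 lie far below the DMSO values, while those of Hnrnpc and Clk3 lie above them.

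The TRA2 proteins, which activate exons rich in purines, and the scaffolds of nuclear speckles fell together. All 5 tested genes fell in the main scaling and in the other 3. Of all tested genes 33.7% fell in the main scaling and 40.8% to 42.4% in the others. The median log2 fold change of the 5 genes was -0.60, and -0.62 with BRQ replicate 1 alone. Tra2a measured 69.5, 65.6 and 68.9 FPKM under DMSO and 39.3, 40.3 and 42.3 under BRQ (-0.73, SE 0.0375, limma adjusted p = 4.78e-08). Tra2b measured 48.2, 45.6 and 47.2 against 30.2, 30.7 and 30.8 FPKM (-0.60, SE 0.0334, adjusted p = 7.67e-08). The groups of both genes were well apart.

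Son, which encodes a large protein that organises speckles, measured 39.2, 36.5 and 37.8 FPKM under DMSO and 22.4, 21.9 and 24.2 under BRQ (-0.70, SE 0.0459, limma adjusted p = 2.44e-07). The splicing coactivator gene Srrm1 went from 90.0, 90.5 and 87.8 to 59.2, 59.7 and 62.7 FPKM (-0.56). Its partner Srrm2, the speckle scaffold SRm300, went from 94.4, 90.6 and 87.2 to 62.9, 62.0 and 67.8 FPKM (-0.49). In each of these genes the BRQ libraries lay close to each other and below every DMSO library. Summed over the family, the level under BRQ was 65.8% of that under DMSO.

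The CLK kinases, which phosphorylate SR proteins in the nucleus, did not move one way. Clk1, the most abundant, measured 72.04, 73.1 and 72.9 FPKM under DMSO and 66.0, 58.8 and 61.0 under BRQ (-0.23, SE 0.0408, limma adjusted p = 0.000435). Clk4 fell from 14.2, 14.2 and 13.5 to 9.88, 9.34 and 10.1 FPKM (-0.48, SE 0.0471, adjusted p = 5.51e-06). Clk3 rose from 17.4, 16.6 and 15.6 to 21.1, 20.6 and 19.5 FPKM (0.29, SE 0.05, adjusted p = 0.000353), without overlap of the groups and under all scalings.

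Clk2 measured 3.88, 3.79 and 3.83 FPKM under DMSO and 3.88, 2.68 and 2.98 under BRQ (-0.22, SE 0.0969, limma adjusted p = 0.0568). BRQ replicate 1 matched the DMSO libraries while BRQ replicates 2 and 3 lay below them, and with BRQ replicate 1 alone the log2 fold change was 0.01 (adjusted p = 0.902). Clk2 was called lower under the other 3 scalings. In Clk1 too BRQ replicate 1 lay nearest to DMSO, with a log2 fold change of -0.14 (adjusted p = 0.0197) on its own. The ratio of Clk4 to Clk3 within a library was 0.846 ± 0.0279 under DMSO and 0.479 ± 0.0329 under BRQ (SD, n = 3).

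Among hnRNPs, which coat nascent transcripts, 16 of 20 tested genes fell and 3 rose, against 33.7% and 48.7% of all tested genes. Their median log2 fold change was -0.28, and -0.26 with BRQ replicate 1 alone. Under the other scalings 17 to 19 fell and 1 rose, where 40.8% to 42.4% of all genes fell and 40.3% to 42.0% rose. Hnrnpdl, a close relative of Hnrnpd, measured 60.1, 58.5 and 60.5 FPKM under DMSO and 21.2, 19.8 and 19.1 under BRQ. This 2.98-fold drop gave a log2 fold change of -1.53 (SE 0.0418, limma adjusted p = 1.04e-09). Hnrnpd, which encodes AUF1, a protein that binds AU-rich elements of unstable mRNAs, measured 38.1, 36.5 and 38.1 FPKM under DMSO and 13.2, 12.3 and 12.6 under BRQ, a 2.96-fold drop (-1.49, SE 0.0406, adjusted p = 1.02e-09).

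Hnrnpab, the third gene of this related group, showed no such drop. It measured 231, 223 and 233 FPKM under DMSO and 238, 246 and 237 under BRQ (0.07, limma adjusted p = 0.0287). This small rise was not called in 6 alternatives, among them median-ratio scaling (-0.05, adjusted p = 0.121), BRQ replicate 1 alone (adjusted p = 0.233) and those leaving out DMSO replicate 2 (0.107) or BRQ replicate 2 (0.102), and became a fall after TMM and quantile scaling (-0.08 each). Within a library the ratio of Hnrnpd to Hnrnpab was 0.165, 0.164 and 0.164 under DMSO and 0.0554, 0.0499 and 0.0531 under BRQ.

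The A/B-type hnRNPs, which repress exons and package mRNA, fell to different degrees. Hnrnpa1, whose protein counteracts SRSF1 at many splice sites, had the highest mean of all members (283 FPKM). It measured 382, 390 and 382 FPKM under DMSO and 179, 187 and 175 under BRQ, a 2.13-fold drop (-1.09, SE 0.0283, limma adjusted p = 9.32e-10). Hnrnpa3 measured 21.9, 21.6 and 22.5 FPKM under DMSO and 9.59, 9.99 and 10.9 under BRQ (-1.04, SE 0.0505, adjusted p = 3.15e-08). Both groups stood clear of each other in either gene. Hnrnpa2b1 went from 246 ± 1.89 to 169 ± 5.28 FPKM (SD, n = 3; -0.54) and Hnrnpa0 from 88.1 ± 2.18 to 60.7 ± 3.59 (-0.53). Hnrnpa1 has many processed pseudogenes, and the sources used here do not say how the authors counted reads shared with them.

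Hnrnpc, whose protein binds uridine tracts and shields intronic Alu sequence in human cells, rose. It measured 87.7, 90.9 and 91.7 FPKM under DMSO and 120, 118 and 120 under BRQ (0.40, SE 0.0276, limma adjusted p = 3.7e-07), and it was the sole hnRNP called higher under all scalings. The ratio of Hnrnpa1 to Hnrnpc within a library went from 4.27 ± 0.0941 to 1.51 ± 0.0665 (SD, n = 3). Hnrnpm measured 128, 126 and 129 FPKM under DMSO and 138, 137 and 133 under BRQ (0.09, adjusted p = 0.00795), but was called lower after quantile normalization (-0.08).

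Other hnRNPs fell by less than those of the D and A1 type. Hnrnpul1 (-0.66), Hnrnpr (-0.57) and Hnrnpk (-0.54), a protein that binds cytosine-rich RNA, led them, followed by Hnrnpl (-0.29), Hnrnpu (-0.27), Hnrnph2 (-0.22), Hnrnpf (-0.18), Hnrnph3 (-0.16), Hnrnph1 (-0.15) and Hnrnpll (-0.14). The groups of Hnrnph3 overlapped. Its call was lost without DMSO replicate 2, BRQ replicate 2 or BRQ replicate 3 (adjusted p = 0.096 to 0.119). Hnrnph2 and Hnrnph3 were not called with BRQ replicate 1 alone. Hnrnpul2 was not called (0.04, adjusted p = 0.21) and was lower after the other scalings (-0.08 to -0.20). The family's summed level was 2014 ± 15.9 FPKM under DMSO and 1536 ± 22.9 under BRQ (SD, n = 3), 76.3% of the control level.

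PTB proteins bind pyrimidine-rich tracts and repress exons, with Ptbp1 found in most tissues, Ptbp2 typical of neurons and Ptbp3 of blood cells. All 3 were called lower, against 33.7% of all tested genes, but by very different amounts. Ptbp2 measured 15.4, 16.5 and 15.2 FPKM under DMSO and 5.24, 4.48 and 4.87 under BRQ, a 3.23-fold drop, which is the largest ratio among the tested members (-1.51, SE 0.0604, limma adjusted p = 9.67e-09). Ptbp3 went from 39.7, 39.8 and 39.9 to 21.9, 20.5 and 22.2 FPKM (-0.86, SE 0.038, adjusted p = 1.87e-08).

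Ptbp1, by far the most abundant, measured 175, 168 and 176 FPKM under DMSO and 165, 161 and 165 under BRQ. Its groups lay close together (-0.08, SE 0.0271, limma adjusted p = 0.0167). The call was lost without DMSO replicate 3 (0.0572), without BRQ replicate 2 (0.057) and with BRQ replicate 1 alone (0.164). Within a library the ratio of Ptbp2 to Ptbp1 was 0.0883, 0.0985 and 0.0864 under DMSO and 0.0319, 0.0278 and 0.0296 under BRQ, and that of Ptbp3 to Ptbp1 went from 0.23 ± 0.00594 to 0.132 ± 0.00382 (SD, n = 3).

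All 6 tested genes of the MBNL, CELF and RBFOX group fell, also under the other scalings. Of all tested genes 33.7% fell, and 40.8% to 42.4% under those scalings. The median log2 fold change of the group was -0.40, and -0.34 with BRQ replicate 1 alone. Muscleblind proteins bind YGCY motifs and were first known for their sequestration in myotonic dystrophy. Mbnl1 measured 36.1, 36.9 and 35.3 FPKM under DMSO and 13.4, 14.0 and 13.6 under BRQ, a 2.63-fold drop (-1.33, SE 0.0372, limma adjusted p = 1.2e-09). Mbnl3 fell from 6.49, 6.27 and 5.99 to 4.14, 3.58 and 3.83 FPKM (-0.58, SE 0.0634, adjusted p = 1.18e-05). Mbnl2, as abundant as Mbnl1 under DMSO, measured 41.1, 39.4 and 40.6 FPKM there and 36.7, 36.3 and 38.6 under BRQ (-0.12, adjusted p = 0.0126).

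The ratio of Mbnl1 to Mbnl2 within a library went from 0.877, 0.935 and 0.869 under DMSO to 0.366, 0.387 and 0.353 under BRQ. Both genes span a similar length of the genome (157 and 156 kb). Celf1, which encodes a protein that opposes MBNL1 at several exons, measured 27.8, 26.3 and 28.2 FPKM under DMSO and 21.02, 19.6 and 19.98 under BRQ (-0.43, limma adjusted p = 6.23e-06). Rbfox2, the epithelial and mesenchymal splicing regulator, measured 9.66, 9.03 and 8.99 against 7.23, 6.40 and 7.21 FPKM (-0.37, adjusted p = 0.000221). Celf4 fell as well (-0.22).

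**Figure D3:**
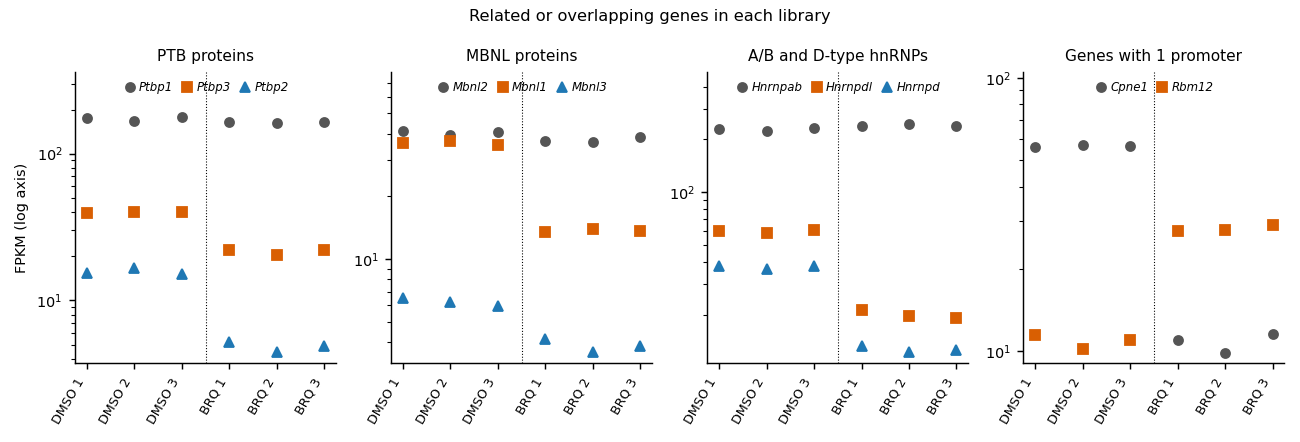
FPKM (log axis) in each of the 6 libraries for the PTB genes, the MBNL genes, Hnrnpab with Hnrnpd and Hnrnpdl, and Cpne1 with Rbm12. The most abundant PTB, MBNL and AB-type genes stayed within a narrow range while their relatives dropped, and Cpne1 is lower and Rbm12 higher under BRQ.

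RBM proteins, named only for their RNA-binding motif, included 17 genes that rose (54.8%) and 13 that fell (41.9%) of 31 tested, near the 48.7% and 33.7% of all genes. Their median log2 fold change was 0.18, or 0.06 above that of all genes. With BRQ replicate 1 alone the median log2 fold change of these genes was 0.15. Under the other scalings 12 rose and 14 fell, where 40.3% to 42.0% of all genes rose and 40.8% to 42.4% fell. Rbm12, which encodes a nuclear protein with several RNA recognition motifs, measured 11.4, 10.2 and 10.95 FPKM under DMSO and 27.6, 27.7 and 29.0 under BRQ. This 2.59-fold rise was the largest of any tested member (1.30, SE 0.0484, limma adjusted p = 6.59e-09).

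Rbm12 cannot be read apart from Cpne1, a gene for a calcium-dependent membrane-binding protein. In the annotation GENCODE M21 both genes lie on the same strand and share 404 exonic bases, 6% of those of Rbm12, as well as the promoter window shown above. A larger part of the exonic bases of Rbm12, 32.6%, also belongs to Gm28036 on the same strand, which was not analysed here. Cpne1 measured 55.7, 56.7 and 56.4 FPKM under DMSO and 11, 9.83 and 11.5 under BRQ, a 5.21-fold drop (-2.28, SE 0.0522, limma adjusted p = 5.05e-10). So the gene pair moved in opposite directions. The sources used here do not say how reads of the shared exons were assigned.

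Rbm38, a target of p53 whose protein steadies or destabilises mRNAs such as that of p21, measured 12.03, 10.1 and 10.3 FPKM under DMSO and 27.6, 28.1 and 25.9 under BRQ (1.26, SE 0.0639, limma adjusted p = 4.25e-08). Rbm45 measured 17.1, 16.8 and 15.3 against 32.3, 32.3 and 33.7 FPKM (0.96, SE 0.0466, adjusted p = 3.3e-08). Rbm42 measured 37.3, 36.2 and 40.4 against 72.6, 67.2 and 71.8 FPKM (0.88, SE 0.0461, adjusted p = 5.43e-08). In these genes every BRQ value exceeded every DMSO value by a wide margin. In GENCODE M21, 75.4% of the exonic bases of Rbm42 also belong to a transcript named Gm21982 on the same strand, which was not analysed here.

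Other RBM genes that rose were Rbm19 (0.74), Rbm34 (0.73) and Rbm28 (0.38), which encode nucleolar proteins. Rbm8a, the Y14 subunit of the exon junction complex, rose from 47.0 ± 0.7 to 67.1 ± 1.67 FPKM (SD, n = 3; 0.50). Rbm22, of the active spliceosome (0.35), Rbm48, of the minor spliceosome (0.53), and Rbm15b, of the m6A methyltransferase complex (0.35), rose too. Rbm4b rose from 0.948 ± 0.182 to 2.30 ± 0.218 FPKM (0.76) and passed the filter only through its BRQ values. Rbm17, the most abundant RBM gene, measured 87.0, 80.8 and 85.6 FPKM under DMSO and 93.9, 97.9 and 92.3 under BRQ (0.16, limma adjusted p = 0.00176). This call and those of Rbm7, Rbm18, Rbm27 and Rbm43 (0.18 each) were lost after all 3 other scalings, and Rbm17 turned to -0.04 after quantile normalization.

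The RBM genes that fell most were led by a gene of nuclear RNA decay and by splicing factors. Rbm26, whose protein links polyadenylated nuclear RNA to the exosome, measured 10.03, 10.6 and 9.98 FPKM under DMSO and 4.64, 4.75 and 5.07 under BRQ (-0.95, SE 0.0538, limma adjusted p = 9.4e-08). Its paralogue Rbm27 rose slightly in the main scaling, and the ratio of Rbm26 to Rbm27 went from 0.966 ± 0.0546 to 0.397 ± 0.00512 (SD, n = 3). Rbm39, which encodes a U2AF-like splicing factor that aryl sulfonamides degrade, measured 69.4, 70.3 and 67.8 against 35.4, 34.7 and 37.2 FPKM (-0.93, SE 0.0349, adjusted p = 6.62e-09).

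Rbm33 measured 18.4, 18.4 and 17.7 FPKM under DMSO and 9.39, 9.44 and 9.51 under BRQ (-0.87, SE 0.0409, limma adjusted p = 2.54e-08). Rbm25, an apoptosis-linked splicing factor with an arginine- and glutamate-rich domain, measured 39.5, 38.9 and 35.5 against 21.5, 21.2 and 21.2 FPKM (-0.80, SE 0.044, adjusted p = 7.12e-08). No BRQ value of either gene came near the DMSO values. The paraspeckle gene Rbm14 (-0.62), the cold-inducible gene Rbm3 (-0.41), the tumour suppressor Rbm5 (-0.41) with its relatives Rbm6 (-0.17) and Rbm10 (-0.13), and Rbm41 (-0.45), Rbm47 (-0.39), Rbm15 (-0.29) and Rbm12b2 (-0.18) fell by less. Rbm6 was not called with BRQ replicate 1 alone. The call of Rbm12b2 (adjusted p = 0.0482) was lost in 9 alternatives, and Rbm3-ps, a pseudogene that may share reads with Rbm3, was not called (adjusted p = 0.0782). The summed RBM level was 656 ± 7.94 FPKM under DMSO and 710 ± 4.85 under BRQ (SD, n = 3), 108% of the control level.

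**Figure D4:**
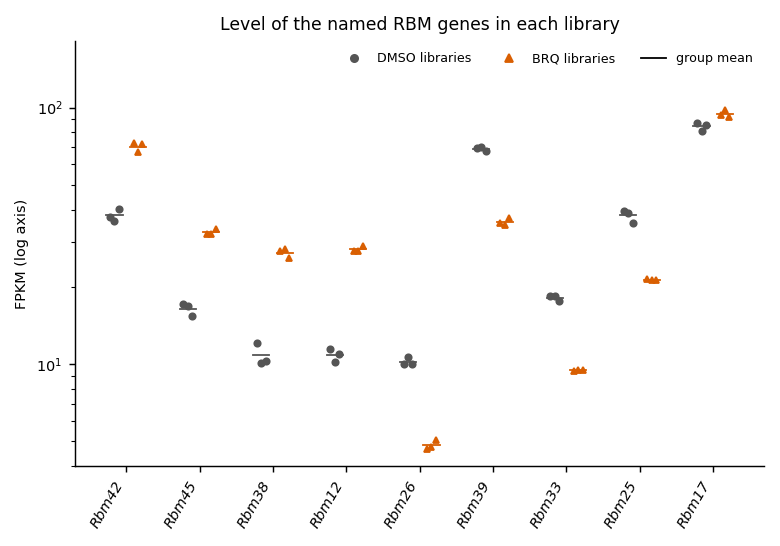
FPKM (log axis) of the named RBM genes in each DMSO library (circles) and BRQ library (triangles), with group means as lines. Rbm42, Rbm45, Rbm38 and Rbm12 lie higher under BRQ, Rbm26, Rbm39, Rbm33 and Rbm25 lie lower, and Rbm17 differs little.

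The 17 members under 1 FPKM were not tested. Rbm24 and Rbm46 stood at 0 in every library, and Srsf12, Srrm3, Rbfox1, Rbfox3, Rbm12b1, Rbm20, Rbm44, Celf3, Celf6 and the pseudogene Hnrnpa1l2-ps2 had a mean under 0.04 FPKM. Rbm11 (0.381), Rbm4 (0.569), Srrm4, a neuronal splicing factor (0.483), Celf5 (0.138) and Celf2 (0.902) had somewhat higher means. Without a filter, limma called 5 of them, and the share of all 17181 genes called in that fit was not counted. Recovered reads averaged 1923 per library for Celf2, 133.5 for Srrm4, 52 for Rbm4 and 38.2 for Celf5. Hnrnpa1l2-ps2 averaged 0.667 reads, so its call rests on very few reads. Rbm4 (0.29, adjusted p = 0.0226) and Srrm4 (0.19, adjusted p = 0.0483) were higher, Celf5 (-0.12, adjusted p = 0.0216) and Hnrnpa1l2-ps2 (-0.05, adjusted p = 0.0269) were lower, and Celf2 was lower, from 1.33 ± 0.0238 to 0.475 ± 0.0239 FPKM (SD, n = 3; -0.66, adjusted p = 1.79e-05).

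Features that the symbols did not select, picked after the values were seen and described with no test, were compared next. In GENCODE M21, 43 of the 79 tested members (54.4%) had at least 1 transcript classed as subject to nonsense-mediated decay, against 30.2% of the 10369 tested genes found there. They included 9 of 10 SR genes, all 5 SR-related genes, all 4 CLK genes, all 3 PTB genes, 10 of 20 hnRNPs and 11 of 31 RBM genes, but 1 of the 6 MBNL, CELF and RBFOX genes (16.7%), all of which fell. Such a transcript was annotated for 33 of the 53 members that fell (62.3%) and 7 of the 21 that rose (33.3%). The median log2 fold change was -0.33 for the 43 members with such a transcript and -0.17 for the 36 without. Members also had more annotated transcripts, with a median of 8 against 5 for all tested genes. This median was 10 for the members that fell and 5 for those that rose. A transcript classed as having a retained intron was annotated for 77.4% of the members that fell and 76.2% of those that rose, against 61.7% of all tested genes found there. The table's ontology terms placed 20 tested members in nuclear specks, of which 14 fell and 4 rose. Of the other 59, 39 fell and 17 rose, against 33.7% and 48.7% of all tested genes. These terms leave out Srrm2, named above as a speckle scaffold, so they do not part speckle genes from others cleanly.

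Across all tested genes, which are not independent replicates, log2 fold changes fell with the genomic span of the gene (Spearman's rho -0.494 over 10535 genes, spans from RefSeq). Among the 79 members rho was -0.217, and their median span was 17.8 kb against 22.5 kb for all genes. When the genes were cut into 5 bins of equal size by span, the bin of shortest genes, up to 7.92 kb, held 16 members. There the median log2 fold change was 0.48 over all genes and -0.23 over its members, of which 9 fell and 4 rose. In the next bins, most of which hold under 20 members, the medians were 0.37 over all genes and -0.13 over 22 members, 0.19 and -0.29 (13 members), and -0.04 and -0.49 (13 members). In the bin of longest genes, from 62.5 kb, they were -0.35 over all genes and -0.43 over 15 members, and 13 of these fell. The shares of all genes called lower or higher within a bin were not counted, so the counts of members have no such share beside them. Members that fell sharply included short genes, such as Hnrnpdl (6.36 kb), Hnrnpa1 (6.76 kb) and Srsf1 (7.26 kb), and long ones, such as Mbnl1 (157 kb).

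**Figure D5:**
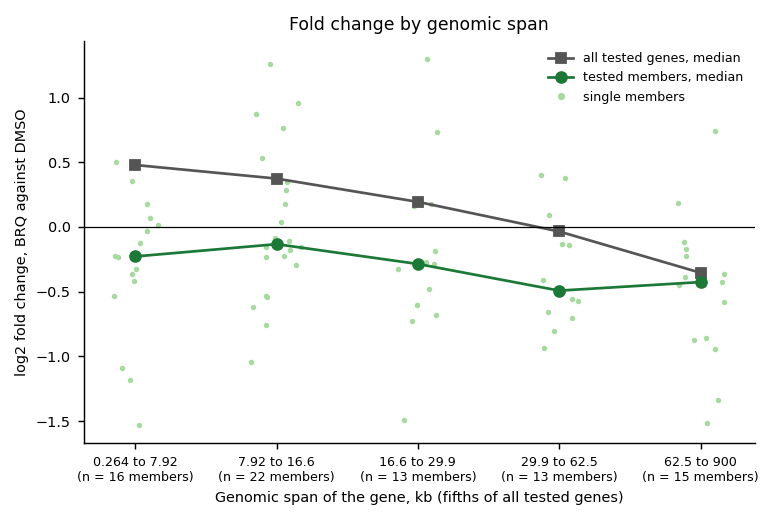
Median log2 fold change of all tested genes (squares) and of the tested members (dark circles), with single members as dots, by bin of genomic span in kb. Member medians lie below those of all genes in each bin, by the widest margin in the shortest (-0.23 against 0.48) and the narrowest in the longest (-0.43 against -0.35).

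Other genes of splicing control were counted from lists chosen for their roles. The counts stand against 33.7% lower and 48.7% higher among all tested genes. Of 6 tested SR protein kinases and importers 4 fell and none rose. Dyrk1a, a speckle kinase (-0.45, limma adjusted p = 4.95e-05), and Tnpo3, which imports SR proteins into the nucleus (-0.27, adjusted p = 6.76e-05), fell most. The main cytoplasmic SR kinase gene Srpk1 measured 37.9 ± 1.34 and 37.3 ± 2.22 FPKM (SD, n = 3; limma adjusted p = 0.626) and was called lower after each of the other scalings. Of 29 genes for other arginine- and serine-rich or speckle proteins 19 fell and 8 rose, with a median of -0.25. Rsrc1 went from 12.6 ± 0.359 to 4.75 ± 0.398 FPKM (SD, n = 3; -1.25) and Pnisr from 21.7 ± 0.466 to 10.7 ± 0.191 (-0.96). Rsrp1 went from 127 ± 2.96 to 250 ± 2.02 (0.97), and Cactin from 16.4 ± 0.648 to 32.3 ± 1.7 (0.94).

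Of 9 hnRNP proteins with other symbols 5 fell and 3 rose, against the same 33.7% and 48.7% of all genes. Syncrip, known as hnRNP Q, was among those that fell (-0.59). Cirbp, a cold-inducible relative of Rbm3, rose from 23.7 ± 2.56 to 63.4 ± 0.891 FPKM (SD, n = 3; 1.39, limma adjusted p = 2.02e-08), opposite to Rbm3, and Raly rose as well (0.56). Of 29 further splicing regulators 17 fell and 8 rose. After the other scalings 20 or 21 fell and 5 to 7 rose, where 40.8% to 42.4% of all genes fell and 40.3% to 42.0% rose. Tia1, which promotes use of weak 5′ splice sites, fell from 15.8 ± 0.834 to 2.67 ± 0.0932 FPKM (SD, n = 3; -2.19), and Cwc22, an exon junction complex loading factor, fell by 0.99 on the log2 scale. Pspc1, of paraspeckles (0.67), and Ybx1, a cold shock domain protein (0.56), rose most. The epithelial splicing regulators Esrp1 (-0.66) and Esrp2 (-0.48), named here outside the rule for named genes, fell too.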

How the data were processed

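RNA sequencing libraries of 4T1 cells given DMSO or BRQ were compared, 3 libraries in each group, with groups and replicate numbers taken from the labels. The submitters' processing notes name GRCm39 as the mouse build, and HTSeq and fastp as tools. The sources used here do not state the aligner, annotation release, strand setting, RNA selection or versions, so reads of overlapping, antisense or near-identical genes may be shared. In GENCODE M21, 37 of the 79 tested members share exonic bases with another gene, 11 of them on the same strand and 29 on the other. Besides Rbm12, Rbm42 and Srsf4 they include Rbm4b (30.8% of its exonic bases) and Hnrnpab (29.1%) on the opposite strand. On the same strand they include Rbm14 (18.6%) and Hnrnpm (14.7%).

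The authors deposited FPKM for 18057 genes, not pooled over replicates. The other 8 columns of values in the table, which belong to no sample of this series, were not used. A gene was tested where its mean over the 6 libraries reached 1 FPKM (10552 genes), on log2(FPKM + 1) with limma 3.58.1 in R 4.3.3 (lmFit, eBayes with a trend), two-sided and with group as the sole term. A call is an adjusted p under 0.05 (Benjamini-Hochberg, all tested genes together). Fold changes are BRQ against DMSO. The added 1 makes log2 changes of weakly expressed genes too small. Changes written as n-fold are ratios of mean FPKM. Whole reads were recovered up to a common divisor, within 0.02 to 0.08 reads, from the steps between FPKM values, so depths are lower bounds. They were whole for all 10552 tested genes, and in simulated FPKM 98.7% of 1492 genes (means of 50 reads or more) came back with their true reads. The limma script was tested on simulated data.

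The members and lists were chosen with earlier results of these data known. Per-library values are given for every tested member of a family of at most 4, and otherwise for up to 4 called rises and 4 called falls, the largest with separate groups, and the most abundant member. From each further list the 2 largest called rises and falls are named, except 1 gene that is not reported here. Alternatives were other pseudocounts, filters and scalings, leaving out each library, BRQ replicate 1 alone, a block for replicate number, limma-voom and a robust prior. Promoter windows were matched by symbol and genomic spans by Entrez identifier (RefSeq, GRCm38.p6), for names, spans and sequence only. Protein sequences were not used here.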

Additional observations from a re-analysis of the deposited data

How the results depend on the processing

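Counts of members that fell (48 to 60) and rose (14 to 22) stayed within 1.5 times those of the main fit in all 16 alternatives, counted over the members each one tested (with BRQ replicate 1 alone 48 fell, 47 of them among the 79 of the main fit). The rises lay at that bound under the other 3 scalings, with 14 in each against 21 in the main fit. The median log2 fold change of the members (-0.234) stayed below 0 in all 16 alternatives. It was -0.28 with a pseudocount of 0.1, -0.175 without a filter and -0.274 with a filter at 5 FPKM. After median-ratio, TMM and quantile scaling it was -0.347, -0.375 and -0.395, and under limma-voom -0.29. With each library left out it ranged from -0.268 to -0.232. Of 74 called members 60 kept direction and call in every alternative run for them. Sign changed with scaling in 5 genes. Hnrnpab went to -0.047, -0.075 and -0.078 after median-ratio, TMM and quantile scaling, Hnrnpm to -0.027, -0.054 and -0.082, Hnrnpul2 to -0.076, -0.103 and -0.196, and Srsf9 to -0.103, -0.13 and -0.21, while Rbm17 went to -0.041 after quantile normalization. These scalings take off the shared rise of the median gene, so small rises turn to falls by construction. With the replicate block, 54 members fell and 20 rose: Clk2 (adjusted p = 0.0416) and Rbm3-ps (0.0233) became calls, and Hnrnpab (0.0557) and Rbm12b2 (0.0591) were lost. Libraries of the same number did not deviate together (correlations of -0.034 to 0.004, against -0.034 to 0.037 over any pair across the groups). With 3 libraries in each group this cannot show whether those of the same number shared a culture or preparation, which the labels do not state. Among hnRNPs, the rises numbered 3 in the main fit and 1 after each other scaling. The least covered tested member, Rbm3-ps, had a mean of 158 reads. Rbm3-ps and Clk2 (273 reads) had the largest standard errors of the tested members (0.113 and 0.0969), and neither was called in the main fit.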
